A study of Mus musculus with 10 samples.

Results

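The Slc25 family is the set of mitochondrial carriers, proteins that move metabolites across the inner mitochondrial membrane. Its members were taken as all genes of the count files whose symbol is Slc25a followed by a number. There were 47 such genes among the 24391 listed, and 38 of them had at least 10 counts in 4 or more of the 10 libraries. They are described here by the substrate each is known to carry. The libraries are RNA-seq libraries of 5 cell lines from mouse small cell lung cancer (SCLC), a fast-growing neuroendocrine lung tumour. The lines are named G4314, G9351, G9488, G9529 and G9577, and each gave 1 library with doxycycline (MYCN on) and 1 library 4 days after its removal (MYCN off). All 10 libraries share the genotype given as Rb;p53,TRE-MYCN, LSL-RTTA. The MYCN transgene is thus driven by a tetracycline-responsive promoter, and its activator rtTA lies behind a Lox-stop-Lox cassette. The Cre used and the species of the transgene are not given in the sources used here. All lines carried the transgene, so what doxycycline does on its own cannot be told apart from what MYCN does. Nothing in the labels says that a line was cultured more than once, so the p-values measure the spread between these 5 lines.

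Mitochondrial carriers sit in the inner membrane and mostly work by exchange, taking one metabolite in as another goes out. They bring ADP, phosphate, amino acids, folate and cofactors into the matrix, and release ATP, citrate, aspartate and other products to the cytosol. MYCN is a transcription factor of the MYC family, which binds DNA as a dimer with MAX at E-box sequences and is known to raise genes of ribosome production, nucleotide synthesis and mitochondrial metabolism. The carriers therefore stand between mitochondrial enzymes and the cytosolic pathways that use their products.

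The MYC-type E-box CACGTG, which reads the same on both strands, was searched for in the promoters that RefSeq gives for the mouse assembly GRCm38.p6, each running from 250 bases before to 50 bases after a gene's start. A promoter was found for 36 of the 47 carrier genes, and 7 of these held the motif in at least 1 promoter (19.4%). Of all genes with a promoter, 8.09% did, and of all 32851 promoters in the table, 7.15% held it. Of the carriers meeting the count rule that could be matched, it was 6 of 29 (20.7%), beside 11.8% of the matched genes tested here. The stretches of 4 carriers are shown, those of 3 genes that rose or fell and that of Slc25a33, the partner of one of them. They are printed on the gene's strand from 5′ to 3′, end before the start site, and have the motif in capitals.
Slc25a13: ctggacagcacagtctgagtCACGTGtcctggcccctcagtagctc
Slc25a15: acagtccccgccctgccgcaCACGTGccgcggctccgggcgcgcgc
Slc25a33: cgtcacggcccggcctccgcCACGTGac
Slc25a36: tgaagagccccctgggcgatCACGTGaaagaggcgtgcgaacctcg
All 4 genes lie on the minus strand. The stretches are at chr6:6217273-6217318 for Slc25a13, chr8:22398329-22398374 for Slc25a15, chr4:149774268-149774295 for Slc25a33 and chr9:97111203-97111248 for Slc25a36. The motif began 125 bases before the start for Slc25a13, 77 bases for Slc25a15, 8 bases for Slc25a33 and 187 bases for Slc25a36. Among the carriers in the test with a promoter in the table, it was in 2 of 5 that rose, in 1 of 3 that fell and in 3 of 21 that did not pass the threshold. A match of these letters is a description of the window and does not show binding.

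Total counts were between 9586465 and 11960074 per library with MYCN on and between 9928420 and 11123998 with MYCN off. Levels are given as CPM, the count of a gene scaled to a common library size, as mean ± SD over the 5 lines. The library size used is the total of the genes kept by the filter on low counts, multiplied by a TMM scaling factor. These factors lay between 0.860 and 1.075, so CPM values differ from counts divided by the totals above. A log2 change is the fitted difference, MYCN on minus MYCN off, with its standard error (SE). Mycn itself had 737 ± 212 CPM with MYCN on, against 118 ± 66.5 CPM with MYCN off, and was higher in 5 of 5 lines. Line G9577 went against the neuroendocrine nature of the tumour. Its summed level of 12 neuroendocrine markers was 238 CPM with MYCN on, against 251 CPM with MYCN off, whereas the other lines had between 3791 and 4649 CPM with MYCN on and between 6037 and 7540 CPM with MYCN off. Its 12 mesenchymal markers summed to 3739 CPM with MYCN on, against 16910 CPM with MYCN off, and those of the other lines to at most 214 CPM with MYCN on and at most 233 CPM with MYCN off. The 9 markers of other cell types, which include the epithelial marker Epcam, summed to 5.22 CPM with MYCN on, against 66.8 CPM with MYCN off, in G9577, and to between 659 and 760 CPM with MYCN on and between 732 and 895 CPM with MYCN off in the other lines. In those lines nearly all of it was Epcam (652 to 754 CPM with MYCN on and 725 to 890 CPM with MYCN off). In G9577 with MYCN off, Epcam had 4.01 CPM, Cd68 4.90 CPM and Pecam1 0.557 CPM. Most of that library's sum thus came from markers of this list that did not pass the filter on low counts. None of the neuroendocrine or mesenchymal markers was at 0 in every library. Results are therefore also given without G9577. Their dependence on this line's cell state was not tested beyond that.

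The carriers did not move in one direction. All 38 passed the filter on low counts. In edgeR's quasi-likelihood test with the line as a block and Benjamini-Hochberg adjustment over 12835 genes, 5 of the 38 carriers rose with MYCN on, 5 fell and 28 did not pass the threshold of 0.05. Of all genes tested, 31.0% were called in either direction, 15.3% higher and 15.6% lower, against 26.3% of the carriers, 13.2% higher and 13.2% lower. The share of carriers called was thus near the background and is not a result about the family. Their median log2 change was 0.01, beside -0.09 for all genes tested. The sign was the same in all 5 lines for 11 of the 38 (28.9%), beside 44.1% of all genes tested. In RNA from whole cultures, fewer cells of a type and less RNA per cell cannot be told apart.

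The 5 that rose were the phosphate carrier Slc25a3, the ADP/ATP carrier Slc25a4, the glutathione carrier Slc25a39, the ornithine carrier Slc25a15 and the aspartate/glutamate carrier Slc25a13. The 5 that fell were Slc25a11, Slc25a36, Slc25a42, Slc25a51 and Slc25a35, which carry oxoglutarate, pyrimidine nucleotides, coenzyme A, NAD and, for Slc25a35, no settled substrate. Of these 10 calls, that of Slc25a35 held whichever line was left out, and each of the others was lost without at least 1 line. Without G4314, 2 of the carriers were called (13.8% of all genes tested), and without G9351 it was 3 (13.4%). Without G9488 it was 3 (20.9%) and without G9529 it was 5 (23.7%). Without G9577, 11 carriers were called and 34.8% of all genes tested. Of these 11, 8 were among the 10 called with all lines, Slc25a13 and Slc25a36 were not, and Slc25a30, Slc25a33 and Slc25a37 were added. Without the line as a block, none of the carriers was called, against 2.13% of all genes tested, and 3 carriers had an unadjusted p under 0.05.

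**Figure D1:**
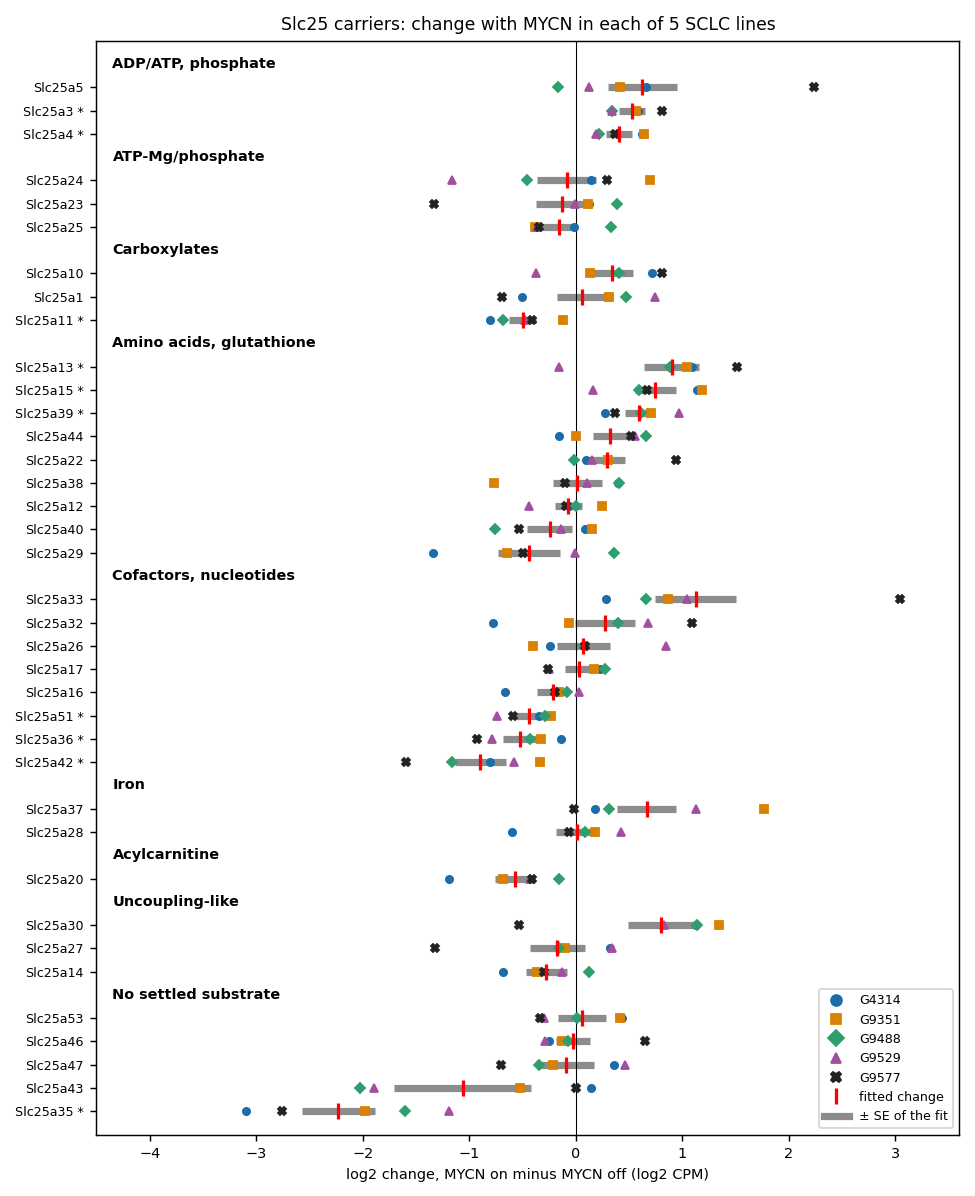
Log2 change, MYCN on minus MYCN off, of 37 Slc25 genes, grouped by substrate. Red ticks are the fitted change, grey bars its SE, symbols the 5 lines, and an asterisk marks the 5 genes that rose and the 5 that fell past the threshold.

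The carriers of ADP, ATP and phosphate supply ATP synthase and export its product. Per length they were the most abundant of the genes taken as members by symbol, and the shares below cover these genes alone. Ucp2, a family gene under another symbol, averaged 515 CPM with MYCN on, against 1259 CPM with MYCN off. Slc25a4 averaged 735 CPM with MYCN on, against 564 CPM with MYCN off. Slc25a3, Slc25a4 and Slc25a5 together held between 61.1% and 68.8% of the members' summed level per kilobase of exon with MYCN on. With MYCN off they held between 48.9% and 61.9%, and all 5 lines had the larger share with MYCN on. Slc25a3 and Slc25a4 rose, and Slc25a5 did not pass. The testis-type ADP/ATP carrier Slc25a31 had 14 counts over all libraries and was not tested.

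Slc25a3 (mm9, chromosome 10, 90579323 to 90586708, minus strand) brings phosphate into the matrix. In the order G4314, G9351, G9488, G9529 and G9577, which is kept throughout, it had 423, 448, 728, 430 and 722 CPM with MYCN on, against 281, 303, 574, 341 and 413 CPM with MYCN off. Each line was higher with MYCN on, although the ranges of the groups overlapped. The mean was 550 ± 160 CPM with MYCN on, against 383 ± 118 CPM with MYCN off (SD, n = 5 lines), a log2 change of 0.53 (SE 0.12, adjusted p = 0.0172, edgeR). Slc25a4, the ADP/ATP carrier of heart and muscle type (chromosome 8, 47292698 to 47296363, minus strand), had 486, 661, 534, 691 and 1302 CPM with MYCN on, against 316, 425, 460, 607 and 1011 CPM with MYCN off. G9577 was the highest in both groups, each line was higher with MYCN on, and the groups overlapped. The log2 change was 0.40 (SE 0.13, adjusted p = 0.0455, edgeR). The call of Slc25a4 was lost with RLE factors (adjusted p = 0.0569, edgeR), with library size alone (0.0505) and without any one line but G9577, and that of Slc25a3 without G4314 or G9351.

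Slc25a5, the ADP/ATP carrier of proliferating cells (chromosome X, 34335592 to 34338803, plus strand), had 439, 260, 313, 316 and 253 CPM with MYCN on, against 278, 195, 351, 290 and 53.7 CPM with MYCN off. It was higher with MYCN on in 4 of 5 lines, and the low MYCN-off library of G9577 stood far under the others. Fitted over all lines, the log2 change was 0.63 (SE 0.33, adjusted p = 0.177, edgeR), and without G9577 it was 0.27 (adjusted p = 0.204, edgeR). Per kilobase of exon, Slc25a5 made up 43.5%, 25.1%, 33.3%, 28.0% and 14.2% of Slc25a4 plus Slc25a5 with MYCN on, against 42.9%, 28.0%, 39.4%, 28.9% and 4.32% with MYCN off. No common direction was seen across lines, and Slc25a4 was the more abundant of the pair in all 10 libraries. Reads that map to several places were not counted, and the GENCODE mouse annotation lists a processed pseudogene of Slc25a5, so the level of this gene is uncertain.

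**Figure D2:**
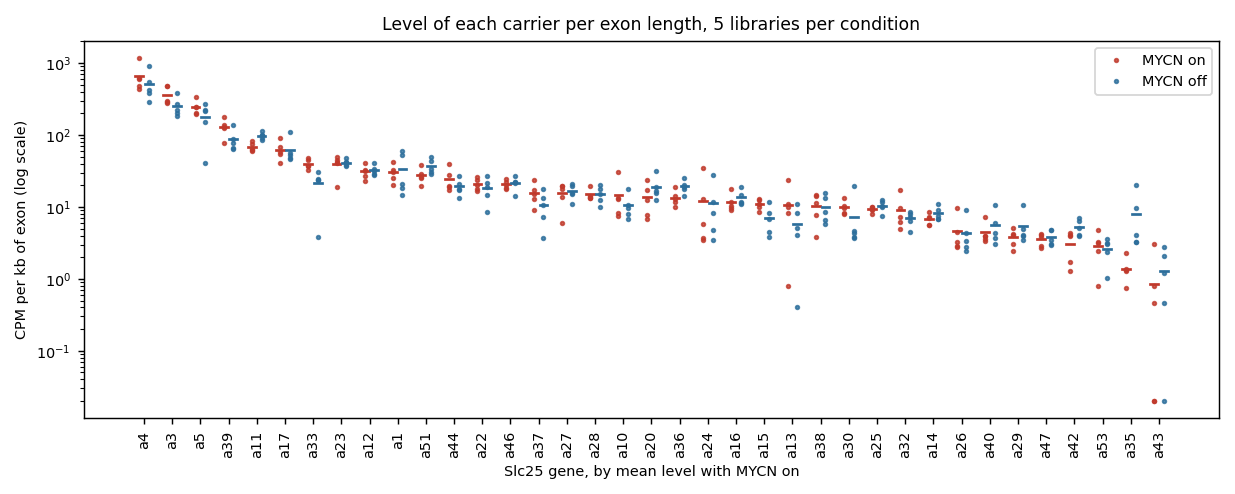
Level per kilobase of exon of 37 Slc25 genes, in CPM per kb on a log axis, with MYCN on at the left and MYCN off at the right of each gene. Points are single libraries and short lines their means, with values of 0 (Slc25a43 only) drawn at 0.02. Slc25a4, Slc25a3 and Slc25a5 are the highest.

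Per kilobase, Slc25a4 was first at 666 CPM per kb with MYCN on and 511 CPM per kb with MYCN off. Slc25a3 followed with 364 CPM per kb with MYCN on and 253 CPM per kb with MYCN off. Slc25a5 was next, with 244 CPM per kb with MYCN on and 180 CPM per kb with MYCN off. Slc25a39 and Slc25a11 changed places behind them. Slc25a39 had 130 CPM per kb with MYCN on and 87.1 with MYCN off, whereas Slc25a11 had 69.1 CPM per kb with MYCN on and 97.5 with MYCN off.

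Of the carriers of amino acids and glutathione, 9 of 11 met the count rule, and their median log2 change was 0.29. Of these 9, 3 rose and none fell, beside 15.3% of all genes tested that rose and 15.6% that fell. So few genes do not make this a result about the class. Slc25a39 (chromosome 11, 102264295 to 102268831, minus strand) is known in mouse and human cells to bring glutathione into mitochondria. It had 129, 209, 226, 217 and 299.7 CPM with MYCN on, against 106, 128, 148, 111 and 232 CPM with MYCN off. Each line was higher with MYCN on, G9577 was the highest in both groups, and the groups overlapped. Its mean was 216 ± 60.6 CPM with MYCN on, against 145 ± 51.2 CPM with MYCN off, a log2 change of 0.59 (SE 0.13, adjusted p = 0.0167, edgeR). The call was lost without G9351 (adjusted p = 0.0725, edgeR) or G9529 (0.0512). Its paralogue Slc25a40, with the same substrate, changed by -0.25 on the log2 scale (SE 0.21, adjusted p = 0.391, edgeR), by -0.16 without G9577 and by -0.08 without G9488.

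Slc25a15 (chromosome 8, 23486022 to 23509093, minus strand) exchanges ornithine for citrulline and so links the matrix to the urea cycle and to polyamine precursors. It had 34.3, 29.8, 43.5, 44.5 and 37.8 CPM with MYCN on, against 15.5, 13.0, 28.9, 39.9 and 23.8 CPM with MYCN off. Each line was higher with MYCN on, least so G9529, whose MYCN-off level overlapped the other group. The log2 change was 0.75 (SE 0.20, adjusted p = 0.0275, edgeR), and the call was lost without G4314, G9351 or G9488.

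Slc25a13, also called citrin (chromosome 6, 5991218 to 6167173, minus strand), exports aspartate for glutamate as a part of the malate-aspartate shuttle. It had 34.6, 26.1, 2.51, 30.7 and 74.6 CPM with MYCN on, against 16.1, 12.6, 1.27, 34.2 and 26.1 CPM with MYCN off. G9488 was far under the other lines in both groups, and G9529 was the line without an increase. On the log2 scale the change was 0.90 (SE 0.26, adjusted p = 0.0383, edgeR), and without G9577 it was 0.72 (adjusted p = 0.0685, edgeR). The call was also lost without G4314, G9351 or G9488. The second aspartate/glutamate carrier, Slc25a12, known as the form of brain and muscle, changed by -0.07 on the log2 scale (SE 0.13, adjusted p = 0.698, edgeR).

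The other carriers of this class did not pass. The branched-chain amino acid carrier Slc25a44 had a log2 change of 0.32 (adjusted p = 0.163, edgeR) and the glutamate carrier Slc25a22 one of 0.29 (adjusted p = 0.219, edgeR), or 0.14 without G9577. The basic amino acid carrier Slc25a29 had -0.44 (adjusted p = 0.275, edgeR), or -0.21 without G4314. For Slc25a38, which carries glycine for haem synthesis, the log2 change was 0.02 (adjusted p = 0.965, edgeR) and its sign changed with the scaling. Slc25a18, the second glutamate carrier, and Slc25a2, the second ornithine carrier, had 113 and 31 counts over all libraries.

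**Figure D3:**
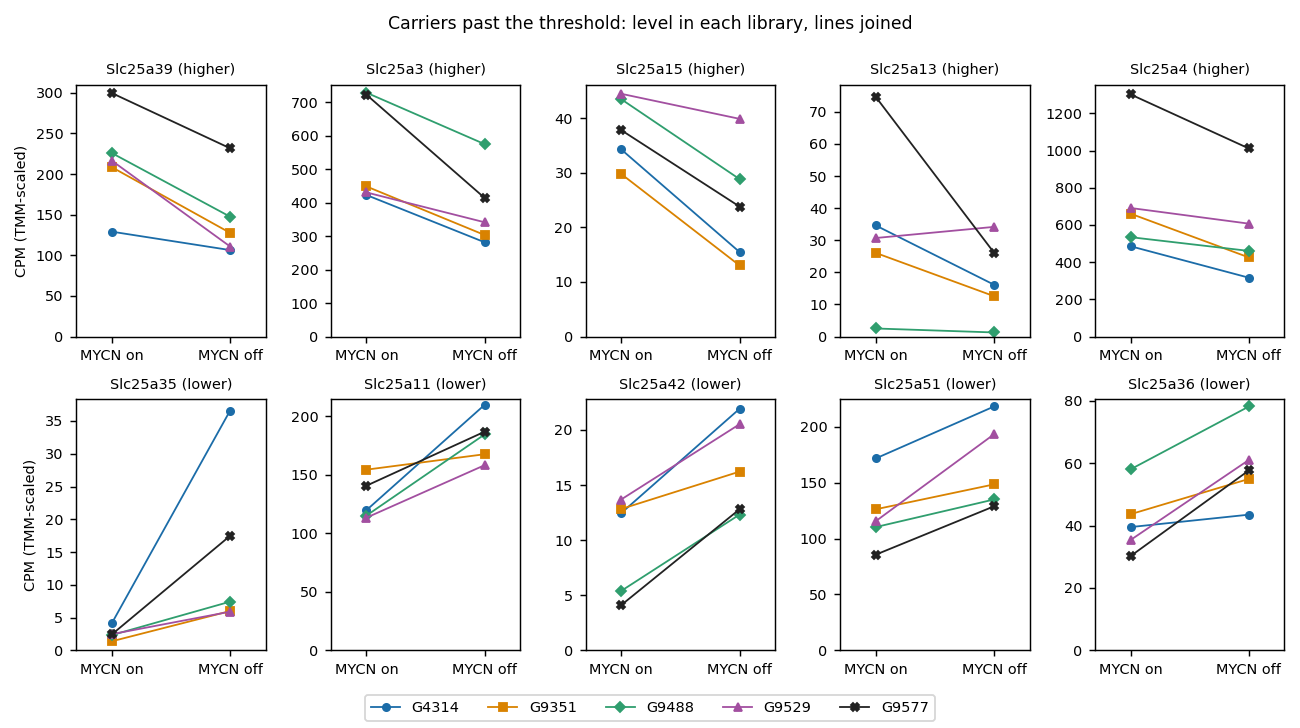
CPM in each library of the 5 Slc25 genes that rose and the 5 that fell, with MYCN on at the left and MYCN off at the right of each panel. Lines join the libraries of a cell line. In Slc25a11 and Slc25a35 the groups did not overlap.

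Among the carboxylate carriers, which feed and drain the citric acid cycle, Slc25a11 fell, and Slc25a1 and Slc25a10 did not pass. Slc25a11 (chromosome 11, 70457529 to 70460541, minus strand) exchanges oxoglutarate for malate and is the partner of the aspartate/glutamate carriers in the malate-aspartate shuttle. It had 120, 154, 115, 113 and 141 CPM with MYCN on, against 210, 168, 185, 158 and 187 CPM with MYCN off. All MYCN-on libraries were under all MYCN-off libraries, including both of G9577. The mean was 129 ± 18.1 CPM with MYCN on, against 181 ± 19.9 CPM with MYCN off, a log2 change of -0.50 (SE 0.13, adjusted p = 0.0264, edgeR). The call was lost without G4314, G9488 or G9529, with adjusted p between 0.057 and 0.0943 (edgeR).

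Slc25a1 exports citrate, from which cytosolic acetyl-CoA and lipids are made. Its CPM was 71.7, 42.8, 33.7, 50.9 and 54.7 with MYCN on, against 102, 34.5, 24.4, 30.4 and 88.8 with MYCN off. It was higher with MYCN on in G9351, G9488 and G9529 and lower in G4314 and G9577. The log2 change was 0.06 (SE 0.24, adjusted p = 0.862, edgeR) and took the other sign with limma-voom. The dicarboxylate carrier Slc25a10 changed by 0.34 on the log2 scale (SE 0.20, adjusted p = 0.218, edgeR). Slc25a21, the oxodicarboxylate carrier, had 90 counts over all libraries.

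All 9 carriers of cofactors and nucleotides met the rule. Of these 3 fell and none rose, beside 15.6% of all genes tested that fell and 15.3% that rose. These counts are too small to read as a result about the class. The median log2 change was 0.03. Slc25a42 (chromosome 8, 72708239 to 72736180, minus strand), which takes coenzyme A into mitochondria, had 12.5, 12.8, 5.39, 13.7 and 4.10 CPM with MYCN on, against 21.9, 16.2, 12.3, 20.5 and 12.8 CPM with MYCN off. Each line was lower with MYCN on, and the groups overlapped between 12.3 and 13.7 CPM. Fitted over all lines, the log2 change was -0.90 (SE 0.24, adjusted p = 0.0296, edgeR), and the call was lost without G4314 or G9488. Slc25a16, also linked to coenzyme A, had a log2 change of -0.22 (adjusted p = 0.30, edgeR), or -0.12 without G4314.

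Slc25a51 (chromosome 4, 45408796 to 45421638, minus strand) is known from human cells as the importer of NAD. It had 172, 126, 110.3, 116 and 85.6 CPM with MYCN on, against 218, 149, 135.0, 193 and 129 CPM with MYCN off. Each line was lower with MYCN on, and the groups overlapped through the MYCN-on library of G4314. The log2 change was -0.44 (SE 0.12, adjusted p = 0.0302, edgeR). It passed the threshold without G9577, and did not without any one of the other lines.

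The pyrimidine nucleotide carriers Slc25a33 and Slc25a36, which supply mitochondria with the nucleotides for DNA and RNA synthesis, had log2 changes of opposite sign, and that of Slc25a36 passed. Slc25a36 (chromosome 9, 96977430 to 97011460, minus strand) had 39.5, 43.6, 58.0, 35.4 and 30.2 CPM with MYCN on, against 43.5, 54.9, 78.1, 61.0 and 57.7 CPM with MYCN off. Each line was lower with MYCN on, least so G4314, and the groups overlapped. On the log2 scale the change was -0.52 (SE 0.16, adjusted p = 0.0428, edgeR). The call was lost without any one of the 5 lines and without the filter on low counts, with adjusted p between 0.0569 and 0.0986 (edgeR).

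Slc25a33 (chromosome 4, 149118145 to 149148376, minus strand) had 70.5, 84.4, 70.4, 90.7 and 60.9 CPM with MYCN on, against 57.97, 46.2, 44.4, 43.9 and 7.24 CPM with MYCN off. All MYCN-on libraries were above all MYCN-off libraries, and the MYCN-off library of G9577 was far under the rest. With all lines the log2 change of 1.12 (SE 0.38) did not pass (adjusted p = 0.0576, edgeR). Without G9577 it was 0.73 with a smaller adjusted p of 0.0108 (edgeR), and it also passed by DESeq2 and limma-voom with all lines (adjusted p = 0.0126 and 0.0425).

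Slc25a32 (chromosome 15, 38925737 to 38944262, minus strand) brings folate, and by other work FAD, into mitochondria, where folate carries the one-carbon units made from serine. It had 14.7, 18.1, 28.4, 21.6 and 50.2 CPM with MYCN on, against 25.4, 18.9, 21.5, 13.4 and 23.5 CPM with MYCN off. G9488, G9529 and G9577 were higher with MYCN on, G4314 and G9351 were lower, and the groups overlapped. The log2 change was 0.27 (SE 0.28, adjusted p = 0.479, edgeR). It was 0.07 without G9577, 0.15 without G9529 and 0.52 without G4314, and passed in none of these fits (adjusted p between 0.191 and 0.845, edgeR). Per kilobase it averaged 9.03 CPM with MYCN on, against 6.98 CPM with MYCN off, far under the adenine nucleotide carriers. Mthfd1l, a mitochondrial folate enzyme, had 3.91-fold more RNA with MYCN on (adjusted p = 0.00265, edgeR). The carriers of S-adenosylmethionine (Slc25a26) and peroxisomal cofactors (Slc25a17) had log2 changes of 0.07 and 0.03 and did not pass (adjusted p = 0.845 and 0.871, edgeR).

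Slc25a35 showed the largest fold change of the family among those past the threshold. It has no settled substrate, and lies on chromosome 11 from 68781633 to 68786017 on the plus strand. It had 4.12, 1.38, 2.32, 2.47 and 2.42 CPM with MYCN on, against 36.6, 6.0, 7.43, 5.90 and 17.5 CPM with MYCN off. All MYCN-on libraries were under all MYCN-off libraries, with G4314 the highest in both groups. The mean was 2.54 ± 0.99 CPM with MYCN on, against 14.7 ± 13.2 CPM with MYCN off, a log2 change of -2.23 (SE 0.34, adjusted p = 0.00576, edgeR). It passed in every alternative fit except the one without the block (adjusted p = 0.0555, edgeR). Its exons share bases with Rangrf on the other strand, whose log2 change was 0.32 (SE 0.54, adjusted p = 0.665, edgeR). Counting was without strand and reads in both genes were left out, so reads of either gene elsewhere in the exons of the other cannot be told apart. Exon bases are also shared between Slc25a25 and Naif1 and between Slc25a26 and Lrig1.

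The other members of this class that met the rule did not pass. Slc25a46, an outer membrane protein of mitochondrial shape, had a log2 change of -0.03, Slc25a53 of 0.06 and Slc25a47 of -0.09 (adjusted p between 0.807 and 0.915, edgeR). The sign of each turned when 1 line or another was left out. Slc25a43 changed by -1.06 on the log2 scale (SE 0.64, adjusted p = 0.242, edgeR) from 39, 10, 0, 6 and 0 counts with MYCN on, against 38, 16, 6, 30 and 0 counts with MYCN off. Without G9529 the value was -0.70. It was the least covered of the 38, with at least 10 counts in 5 libraries.

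None of the ATP-Mg/phosphate carriers, which adjust the adenine nucleotide pool of the matrix and respond to calcium, passed. Slc25a23, with the highest mean CPM of the 3, had 136, 152, 166, 142 and 62.9 CPM with MYCN on, against 125, 140, 127, 143 and 159 CPM with MYCN off. The MYCN-on library of G9577 was the lowest of all 10, and the other 4 lines were level or somewhat higher with MYCN on. The fitted log2 change was -0.13 (SE 0.25, adjusted p = 0.699, edgeR) with all lines and 0.16 without G9577. Slc25a25 had a log2 change of -0.16 and Slc25a24 of -0.09 (adjusted p = 0.455 and 0.822, edgeR). Across the lines, Slc25a24 ran from 11.6 to 117 CPM with MYCN on and from 11.9 to 95.5 CPM with MYCN off.

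Neither mitoferrin passed. Slc25a37, the form that imports iron in red cell precursors, had the higher mean CPM of the 2 and had 62.0, 53.0, 37.7, 97.7 and 72.6 CPM with MYCN on, against 54.9, 15.5, 30.3, 44.5 and 73.6 CPM with MYCN off. It was higher with MYCN on in 4 lines and level in G9577. The log2 change was 0.66 (SE 0.28, adjusted p = 0.106, edgeR), 0.85 without G9577 (adjusted p = 0.0441, edgeR) and 0.39 without G9351 (adjusted p = 0.265, edgeR). Slc25a37 passed in none of the other alternatives. For Slc25a28, the form of other tissues, the log2 change was 0.01 (SE 0.19, adjusted p = 0.983, edgeR) and its sign turned with the scaling.

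Slc25a20, which brings acylcarnitines into mitochondria for fatty acid oxidation, had 12.0, 13.9, 30.5, 22.3 and 42.4 CPM with MYCN on, against 27.6, 22.5, 34.0, 30.1 and 56.3 CPM with MYCN off. Each line was lower with MYCN on, and the groups overlapped. On the log2 scale the change was -0.57 (SE 0.19) and did not pass (adjusted p = 0.054, edgeR), although it did with DESeq2 (adjusted p = 0.0154) and with RLE scaling (adjusted p = 0.047, edgeR).

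The uncoupling-like carriers did not pass in the main edgeR fit with all lines. Slc25a27, with the highest mean CPM of the 3, had 37.4, 52.5, 47.7, 53.2 and 15.9 CPM with MYCN on, against 29.9, 56.4, 53.3, 42.1 and 40.1 CPM with MYCN off. It was lower with MYCN on in G9351, G9488 and G9577 and higher in the other lines. Slc25a30 had 17.5, 16.7, 14.2, 13.4 and 22.6 CPM with MYCN on, against 7.88, 6.47, 6.36, 7.49 and 32.8 CPM with MYCN off. G9577 was lower with MYCN on and the other 4 lines were all higher. The log2 change of Slc25a30 was 0.80 (SE 0.31, adjusted p = 0.0875, edgeR), and 1.14 without G9577 (adjusted p = 0.00547, edgeR). With all lines it passed by DESeq2 (adjusted p = 0.0413) and not by limma-voom (adjusted p = 0.167). Slc25a14 had a log2 change of -0.28 (adjusted p = 0.297, edgeR).

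Where 2 carriers move the same substrate, the ratio of the pair was compared within each line by an exact sign-flip permutation test, two-sided, over the 5 lines. With 5 lines this test cannot give a p under 0.0625, so no pair could pass, and 6 of the 7 pairs listed could be computed. The ratio of Slc25a33 to Slc25a36 per kilobase was 2.91, 3.15, 1.98, 4.18 and 3.28 with MYCN on, against 2.17, 1.37, 0.927, 1.17 and 0.206 with MYCN off. It was higher with MYCN on in 5 of 5 lines, and the groups overlapped only through the MYCN-off library of G4314. The mean change was 1.71 ± 1.37 on the log2 scale (SD, n = 5, exact p = 0.0625, adjusted over the 6 pairs 0.0938), and 1.14 without G9577.

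The other pairs that shifted one way in all lines did so by less. The ratio of Slc25a13 to Slc25a12 changed by 0.96 ± 0.48 on the log2 scale, that of Slc25a39 to Slc25a40 by 0.83 ± 0.47 and that of Slc25a37 to Slc25a28 by 0.67 ± 0.61 (SD, n = 5 each), each higher with MYCN on in 5 of 5 lines (exact p = 0.0625, adjusted 0.0938). Without G9351 the change of the ratio of Slc25a37 to Slc25a28 was 0.44. The ratio of Slc25a5 to Slc25a4 was higher with MYCN on in 2 of 5 lines, with a change of 0.25 ± 0.92, and that of Slc25a24 to Slc25a23 in 3 of 5, with 0.05 ± 1.12 (exact p = 0.938 each). Both of these took the other sign without G9577.

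**Figure D4:**
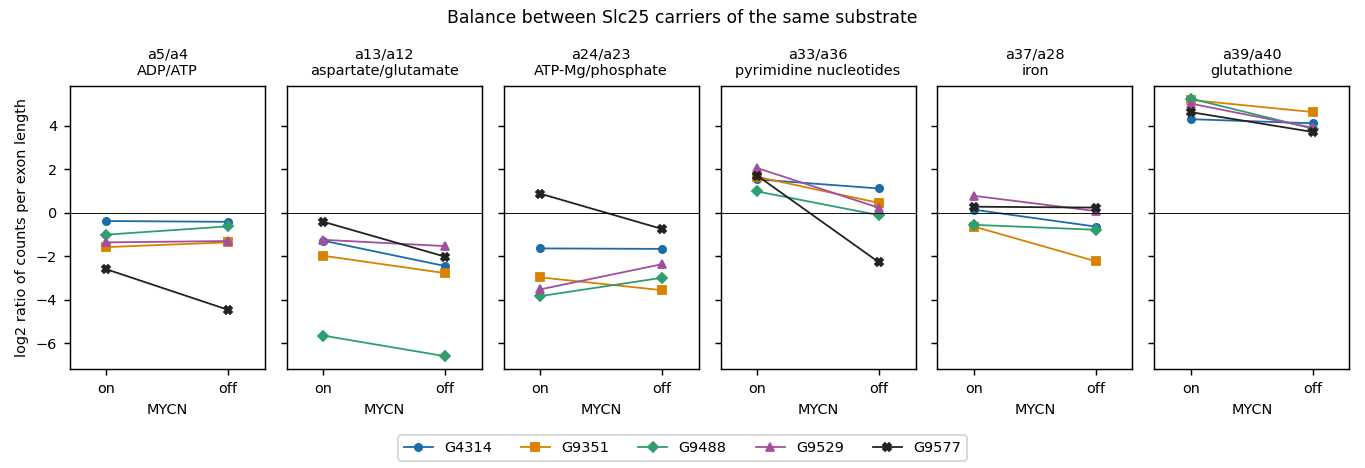
Log2 ratio of counts per exon length within 6 pairs of Slc25 genes that carry the same substrate, with MYCN on at the left and MYCN off at the right of each panel. Lines join the libraries of a cell line. The ratios of Slc25a33 to Slc25a36, Slc25a13 to Slc25a12, Slc25a39 to Slc25a40 and Slc25a37 to Slc25a28 were higher with MYCN on in all 5 lines.

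By line, the family's summed CPM was 2977, 3089, 3355, 3119 and 4321 with MYCN on, against 2675, 2476, 3038, 2872 and 3549 with MYCN off. All 5 lines had more with MYCN on, and G9577 was the highest in both groups on this scale. Its place with MYCN off rests on the scaling. By plain counts, that library had 31882 Slc25 counts of 11123998 in total, against 31067 of 9928420 for G9488 with MYCN off. These sums and the shares below leave out Ucp2, a family gene under another symbol. Ucp2 had 882, 545, 540, 461 and 146 CPM with MYCN on, against 2815, 1301, 950.5, 1085 and 143.6 CPM with MYCN off. With it added, the sum would be lower with MYCN on in every line but G9577. G9577 would then not be the highest with MYCN off. Slc25a3, Slc25a4 and Slc25a5 held 45.2%, 44.3%, 47.0%, 46.1% and 52.7% of the summed CPM with MYCN on. With MYCN off they held 32.8%, 37.3%, 45.6%, 43.1% and 41.7%. The rest of the family summed to less with MYCN on in G4314 and G9577 and to more in the other lines. The median change of the 38 was between 0.01 and 0.12 in G4314, G9351, G9488 and G9529 and -0.15 in G9577, where the median of all genes tested was -0.23. Between 19 and 23 of the 38 were higher with MYCN on in those lines, and 14 were in G9577. G9577 also had the most carriers changed by over 2-fold, 8 of 38, beside 4 to 6 in the other lines. The shares of all genes tested that were higher, or changed by over 2-fold, were not computed by line. These counts are thus not a result about the carriers.

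Genes for enzymes that make or use the carriers' substrates were set beside them. Of 46 such genes, 14 rose and 2 fell, with a median log2 change of 0.34, beside 15.3% of all genes tested that rose and 15.6% that fell. The number that fell was 1 without G4314, G9351 or G9488 and 4 without G9577. Those with the smallest p were Mthfd1l, already given, Got1, the cytosolic transaminase of the malate-aspartate shuttle, which had 2.64-fold more RNA with MYCN on, and Odc1, which makes putrescine from ornithine and had 3.17-fold more (adjusted p = 0.00265 each, edgeR). Of 13 genes that stand for mitochondrial content, namely genes of the respiratory chain, ATP synthase and protein import, the citrate synthase gene Cs and the mitochondrial DNA factor Tfam, 9 rose and none fell, beside 15.3% higher and 15.6% lower of all genes tested. Those that rose included Tomm70a by 2.02-fold (adjusted p = 0.0107, edgeR), Timm50 by 1.76-fold (0.0132) and Atp5b by 1.68-fold (0.0129). With 1 line left out, the number of the 13 that rose was 1 (G4314), 2 (G9351), 4 (G9488), 5 (G9529) or 9 (G9577).

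Of 21 tested genes for other transport across the mitochondrial membranes, 5 rose and 4 fell, with a median log2 change of 0.05, beside 15.3% and 15.6% of all genes tested. With RLE factors, 2 rose and 4 fell. Among those with the smallest p were the calcium uniporter Mcu, 1.91-fold lower with MYCN on (adjusted p = 0.0101, edgeR), and the serine transporter Sfxn1, 2.26-fold higher (0.0106). With a line left out, the numbers that rose and fell were 2 and 2 for G4314, 1 and 2 for G9351, 3 and 2 for G9488, 2 and 2 for G9529, and 5 and 5 for G9577. Of the 12 neuroendocrine markers, 7 fell (4 without G4314 or G9351) and none rose, beside 15.6% and 15.3% of all genes tested. Of the 12 mesenchymal markers 5 were tested and 1 of these fell. Vim and Col1a1, with 4409 and 548 CPM in G9577 with MYCN off, did not pass the filter on low counts. Of 9 markers of other cell types 3 were tested and none passed. The part of these marker changes in the changes of the carriers was not tested.

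The 9 carriers under the count rule were Slc25a2, Slc25a18, Slc25a21, Slc25a31, Slc25a34, Slc25a41, Slc25a45, Slc25a48 and Slc25a54. Their totals over the 10 libraries ran from 5 counts for Slc25a41 to 113 for Slc25a18, and no change is given for them. They include the second ornithine carrier, Slc25a2, and the second glutamate carrier, Slc25a18. The first of each, Slc25a15 and Slc25a22, met the rule, as did the aspartate/glutamate carriers Slc25a12 and Slc25a13.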

How the data were processed

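RNA-seq was made from 5 SCLC lines of the mouse, each with MYCN on and off. TRIzol RNA, oligo-dT selection and the NEBNext Ultra kit were used per the labels' protocols, and this kit keeps no strand. Demultiplexing and alignment tools, per the submitters' processing notes, were bcl2fastq 1.8.4 and STAR 2.5.2a, on mouse build mm9. The authors deposited unnormalised read counts for each gene, which per the file headers come from featureCounts 1.6.0 with UCSC iGenomes models and no strand setting. As no setting for multi-mapping or overlapping reads is recorded, these were left out, and near copies are counted in part.

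Genes under filterByExpr's minimum count of 10 were left out, which kept 12835 genes with between 93.9% and 99.9% of each library's counts. The test was edgeR 4.0.16 (R 4.3.3) quasi-likelihood with TMM scaling, the line as a block, 4 residual degrees of freedom and Benjamini-Hochberg adjustment over all genes tested, two-sided. The biological coefficient of variation was 28.5%. Each label names the line, and libraries of the same line deviated together from the group means (correlation between 0.721 and 0.873, at most 0.273 between lines), so the pairing by line comes from the labels. The standard error is the log2 change over the square root of F. Log2 changes of single lines use a prior count of 2, and ratios of pairs a count of 0.5 added to each gene. Gene coordinates come from the file rows (mm9), promoters from RefSeq (GRCm38.p6), matched by symbol. Levels per kilobase use the exon length of the files. Counting error was not separated from the spread between lines.

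Alternatives were no block, DESeq2 1.42.0, limma-voom (limma 3.58.1), RLE factors, library size alone, no filter, a filter of 10 counts in 4 libraries, and each line left out. The members, substrate classes, pairs and lists were chosen with earlier results of these data known. All 38 members are in the counts and medians, and 37 are reported one by one. The values of 1 carrier and of 1 other transport gene are not reported here. Values in each library are given for Slc25a32 and, per class, for up to 3 members of smallest p past the threshold, or else that of highest mean CPM. Slc25a1, Slc25a5, Slc25a30, Slc25a33 and Slc25a43 were added after their values were seen. In the other lists up to 3 genes of smallest p are named. Slc25 genes on other symbols, such as Ucp2, were not taken as members.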

Additional observations from a re-analysis of the deposited data

Results flagged for a closer look

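For the 38 carriers, a library or line far from the other 4 was looked for with Dixon's test in the log2 CPM with MYCN on, the log2 CPM with MYCN off and the log2 change. There were 11 such values among 114 tests, and 9 of them were in G9577, the line low in neuroendocrine markers. Chance gives about 1 in 20 for independent tests. These are not independent, as the log2 change is made from the levels with MYCN on and off. In G9577, Slc25a23, Slc25a30 and Slc25a33 were each flagged both in a level and in the change. The count of 11 can thus not be set against that rate. With MYCN on, G9577 had a log2 CPM of 5.98 for Slc25a23, where the nearest line had 7.09, and of 4.38 for Slc25a40, where the nearest had 3.52. With MYCN off, it had 7.51 for Slc25a17 (nearest 6.55), 5.05 for Slc25a30 (nearest 3.01) and 2.89 for Slc25a33 (nearest 5.46). Its log2 change was -1.33 for Slc25a23 (nearest -0.01), -0.53 for Slc25a30 (nearest 0.82), 3.04 for Slc25a33 (nearest 1.04) and 0.65 for Slc25a46 (nearest -0.08). The remaining values were a log2 CPM of 4.93 for Slc25a28 in G9351 with MYCN on (nearest 4.47) and of 4.42 for Slc25a29 in G4314 with MYCN off (nearest 3.29). The part of the line's marker levels in these values was not tested.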

How the results depend on the processing

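Without the replicate block, 274 genes were called, with 0 carriers higher and 0 lower, against 3973, 5 and 5 in the paired analysis. Leaving out 1 line at a time gave between 1729 and 4493 calls over all genes, between 0 and 7 carriers higher and between 1 and 4 lower. DESeq2, limma-voom, RLE factors, library size alone and both other filters kept 9 or 10 of the 10 carrier calls. The median log2 change of the carriers lay between -0.044 and 0.077 with a line left out.

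Among the members reported one by one, reversed signs were seen only in those that did not pass, and they were seen in 2 pairs. Without the block the log2 change was -0.14 for Slc25a1, 0.10 for Slc25a24 and -0.02 for Slc25a28. With DESeq2 it was -0.0001 for Slc25a17, -0.026 for Slc25a28 and -0.013 for Slc25a38. With limma-voom it was -0.029 for Slc25a1 and -0.009 for Slc25a28, with RLE factors -0.025 for Slc25a28 and -0.016 for Slc25a38, and with library size alone -0.00079 for Slc25a28. With a line left out, log2 changes ran from -0.13 to 0.26 for Slc25a1, -0.16 to 0.004 for Slc25a12, -0.032 to 0.12 for Slc25a17, -0.23 to 0.16 for Slc25a23 and -0.30 to 0.15 for Slc25a24. They ran from -0.14 to 0.18 for Slc25a26, -0.33 to 0.11 for Slc25a27, -0.12 to 0.14 for Slc25a28, -0.10 to 0.19 for Slc25a38, -0.18 to 0.023 for Slc25a46, -0.26 to 0.08 for Slc25a47 and -0.062 to 0.15 for Slc25a53. The change of the log2 ratio ran from -0.156 to 0.406 for Slc25a5/Slc25a4 and from -0.348 to 0.348 for Slc25a24/Slc25a23. The causes were not tested. RNA levels do not measure carrier protein or transport, and 1 library per line and condition limits all of these values.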
